A study of Homo sapiens with 4 samples.

Results

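The genes described here are 10 genes that encode markers and secreted products of ovarian carcinoma: *MUC16*, *WFDC2*, *MSLN*, *MUC1*, *FOLR1*, *PAX8*, *SLPI*, *SPP1*, *AGR2* and *LCN2*. They were taken by symbol from the 33694 gene rows of each count matrix, and all 10 had a row. The rule itself uses no measured value, but the 10 genes were chosen with earlier results of these data known. Droplet-based scRNA-seq (10x Genomics 3′ chemistry) was performed on OVCA420, an established epithelial ovarian cancer cell line, in 4 libraries. The Ctrl library came from untreated cells, and the 1-day, 3-day and 7-day libraries came from cells of the same line kept in 10 ng/mL TGF-β1, a cytokine used to induce the epithelial-mesenchymal transition (EMT), for 1, 3 and 7 days. All 4 cultures were harvested on the same occasion. New cytokine was added at intervals during treatment, and cells were split as needed but not shortly before harvest. All 4 libraries therefore share the line and growth medium, and no genotype differs between them. There was 1 library per time point, so no test of a difference between conditions could be made and no p-value is given. Time of treatment and any difference between the 4 preparations cannot be told apart.

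Serous ovarian carcinomas arise from Müllerian-type secretory epithelium, and several products of that epithelium are shed or secreted into the circulation, where they are used as tumor markers. MUC16 carries the CA125 antigen, WFDC2 is the marker HE4, and mesothelin, the product of *MSLN*, is a surface protein to which MUC16 binds. TGF-β1 drives an EMT in many epithelial cells, in which secretory and adhesive features of epithelium can be lost.

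Levels are given as counts of unique molecular identifiers (UMIs, each standing for 1 captured RNA molecule) summed over the cells of a library and expressed as CPM, the share of a gene in all UMIs of its library scaled to a fixed total. Since 3′ libraries tag the end of a transcript, CPM was not divided by gene length. The 933 Ctrl, 937 1-day, 705 3-day and 569 7-day cells retained held 25382817 to 32949874 UMIs per library, with a median of 30270 to 43553 UMIs per cell. They are the first part of each library in barcode order, not all of it. A count of 3 UMIs, taken as the floor below which no fold is given, corresponded to 0.0910 to 0.118 CPM. All intervals are 95% intervals, exact Poisson for levels, exact conditional for ratios and exact binomial for shares of cells, and they cover counting error only, not the variation between cultures. The 4 libraries shared 1 to 7 analysed cell barcodes per pair. As a check of the treatment, *PMEPA1*, a direct target of TGF-β signaling, measured 66.8 CPM in Ctrl and, in time order, 1501, 1385 and 962 CPM in the treated libraries.

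The label of carcinoma markers was only in part borne out by the levels. *SPP1* and *AGR2* were abundant in untreated cells, *LCN2* and *SLPI* were detected at low levels, and the diagnostic markers *MUC16*, *MUC1*, *PAX8*, *MSLN*, *WFDC2* and *FOLR1* were at or below 2.97 CPM in every library. A mean of at least 1 CPM over the 4 libraries, the filter used for counts over all genes, was reached by 4 of the 10 genes (*SLPI*, *SPP1*, *AGR2* and *LCN2*) and by 12694 of the 33694 rows. The other 6 are described with all their counts. Of epithelial and lineage genes, chosen after their values were seen, *EPCAM* was at 331, 357, 361 and 297 CPM and *SOX17*, a Müllerian lineage factor, at 69.3, 102, 88.1 and 116 CPM in Ctrl, 1-day, 3-day and 7-day, while the lineage genes *WT1* and *EMX2* had no UMI and other epithelial genes differed, as given with the marker lists.

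**Figure D1:**
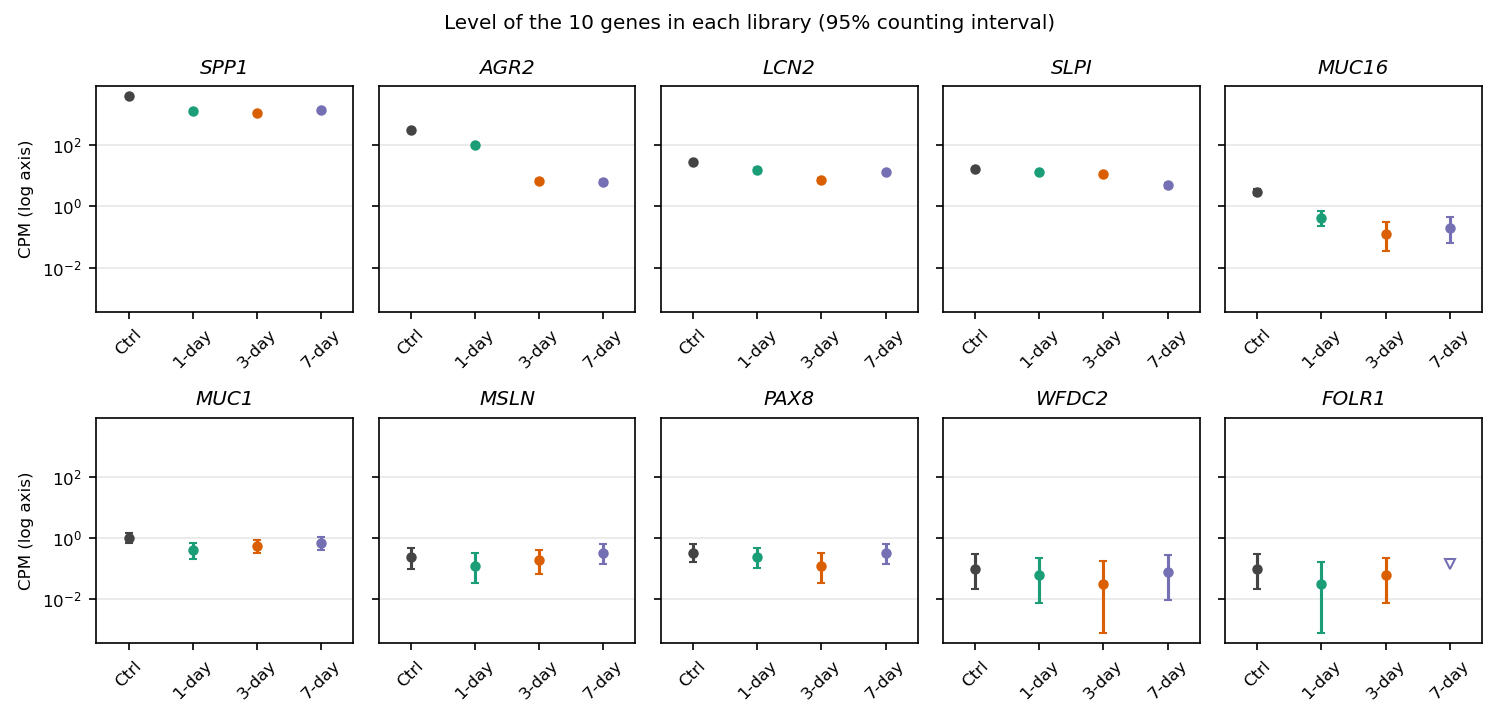
Level of each of the 10 genes in the 4 libraries, in CPM on a log axis, with points for the pooled cells of a library and bars for the exact Poisson 95% interval; the open triangle marks the upper limit for *FOLR1* at 7-day, where no UMI was counted. *SPP1* stays at or above 1165 CPM throughout, *AGR2* goes from 316 CPM in Ctrl to 6.22 CPM at 7-day, and *MSLN*, *PAX8*, *WFDC2* and *FOLR1* stay below 0.4 CPM.

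At 1 day, 4 of the 10 genes were at least 2-fold lower than in Ctrl (*MUC16*, *MUC1*, *SPP1* and *AGR2*), against 10.6% of the 12694 genes tested. At 3 days 5 were (*MUC16*, *PAX8*, *SPP1*, *AGR2* and *LCN2*), against 8.54%, and at 7 days 5 were (*MUC16*, *SLPI*, *SPP1*, *AGR2* and *LCN2*), against 7.85%. None was at least 2-fold higher at any time point, against 10.2%, 10.9% and 12.9% of all genes tested. *WFDC2* and *FOLR1* had at most 3 UMIs in every library and were given no fold. *MUC16*, *MUC1* and *PAX8* are below the filter that the shares of all genes are taken over, so the shares are a loose measure for them, and at 7 days the share without a filter was 9.82%. The interval of each of these ratios stayed below 0 except that of *PAX8* at 3 days, which rests on 4 UMIs. The median log2 ratio to Ctrl over all genes tested was -0.07, 0.01 and 0.08 at 1, 3 and 7 days. The 3 sets of ratios share the Ctrl library, so they are not independent of each other. Since the 10 genes were chosen with earlier results of these data known, the counts are a description and not a test of the set.

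**Figure D2:**
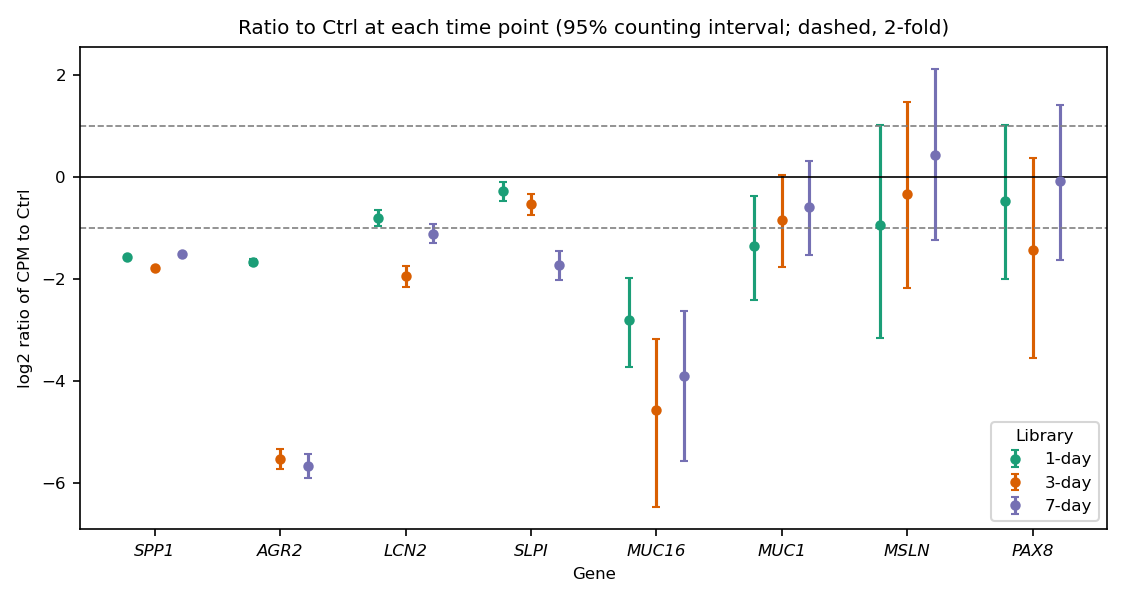
Log2 ratio of the CPM at 1, 3 and 7 days to that of Ctrl for the 8 genes with a fold, with exact conditional 95% counting intervals; dashed lines mark a 2-fold difference. *AGR2* reaches -5.67 at 7 days, *SPP1* stays between -1.78 and -1.50, *SLPI* passes the 2-fold line only at 7 days, and the intervals of *MSLN* and *PAX8* include 0 at every time point.

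The gene positions, in GENCODE release 44 for GRCh38, are chr19:8848844-9010390 (- strand) for *MUC16*, chr1:155185824-155192916 (-) for *MUC1*, chr16:760734-768865 (+) for *MSLN*, chr11:72189558-72196323 (+) for *FOLR1* and chr2:113215997-113278921 (-) for *PAX8*. *WFDC2* lies at chr20:45469753-45481532 (+) and *SLPI* at chr20:45252239-45254564 (-), in the same cluster of WAP-domain genes. The loci of *MUC1*, *FOLR1*, *PAX8* and *SPP1* each overlap 1 other annotated gene, which for *MUC1* lies on the same strand, so that the few *MUC1* UMIs may be shared with it. *SPP1* lies at chr4:87975667-87983532 (+), *AGR2* at chr7:16791811-16833433 (-) and *LCN2* at chr9:128149071-128153453 (+). For *AGR2*, the gene with the largest difference, the 250 bases before its start in the RefSeq table are shown, a start that lies inside the annotated gene and not at its outer end. Beside it stand 30 bases (40 to 11 before the start) of *SPP1* and *LCN2*, whose windows overlap annotated exons. The starts used for *SPP1* and *LCN2* also lie inside the annotated genes. The 3 are RefSeq sequences of GRCh38.p14, 5′ to 3′ on the gene's strand, at chr7:16805000-16805249 (-), chr4:87975674-87975703 (+) and chr9:128149413-128149442 (+).
AGR2: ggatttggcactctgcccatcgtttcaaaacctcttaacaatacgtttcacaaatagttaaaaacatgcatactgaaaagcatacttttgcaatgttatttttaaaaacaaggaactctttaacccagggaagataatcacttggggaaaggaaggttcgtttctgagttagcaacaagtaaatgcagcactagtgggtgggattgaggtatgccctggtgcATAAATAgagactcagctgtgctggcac
SPP1: tgcagcagcatttaaattctgggagggctt
LCN2: ccctagatcccATAAATAgggccacccagg
Capitals mark ATAAATA, letters that resemble a TATA box. It stands 28 to 22 bases before the start of *AGR2* and 29 to 23 bases before that of *LCN2*. It was not found in the 30 bases of *SPP1*, where other TATA-like letters were not searched for. Of 35116 promoters of 250 bases, 4.60% hold it on either strand, a share that does not apply to the windows of 30 bases. The letters TGANTCA (AP-1 sites), CAGACA (a SMAD motif) and GGAAGT (an ETS motif), searched on both strands, were not found in the 250 bases of *AGR2*; they occur in 6.57%, 13.6% and 19.5% of promoters. RefSeq entries were matched for 7 of the 10 genes.

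Among the secreted products, *SPP1* encodes osteopontin, a secreted phosphoprotein that binds integrins and CD44. *SPP1* was at 4001 CPM in Ctrl (120028 UMIs), 1350 CPM at 1-day (44496 UMIs), 1165 CPM at 3-day (37436 UMIs) and 1413 CPM at 7-day (35871 UMIs). The 3 treated libraries thus lay close together and well below Ctrl. The log2 ratios to Ctrl were -1.57 (interval -1.58 to -1.55), -1.78 (-1.80 to -1.76) and -1.50 (-1.52 to -1.48), a 2.83-fold to 3.44-fold lower level. Between treated libraries the differences were small, with a log2 ratio of -0.21 from 1 to 3 days and 0.28 from 3 to 7 days. *SPP1* nevertheless stayed an abundant transcript, since by UMI count it ranked 31st of all genes in Ctrl and 114th, 125th and 102nd after treatment.

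The lower *SPP1* level was seen across the cells and not in a subset. Every retained cell of every library held at least 1 *SPP1* UMI. To compare cells at 1 depth, each cell was thinned at random to 18000 UMIs, which left out 89, 37, 28 and 20 shallower cells of Ctrl, 1-day, 3-day and 7-day. The median thinned cell then held 66 *SPP1* UMIs in Ctrl and 20, 18 and 20 UMIs at 1, 3 and 7 days. The 10th and 90th percentiles were 38 and 108 UMIs in Ctrl and 9 and 47.2 UMIs at 7-day. The 2 ranges overlapped little. Fewer than 38 UMIs were held by 9.12% of Ctrl cells and by 83.2%, 89.5% and 82.9% of cells at 1, 3 and 7 days, and the share at or above the Ctrl median was 2.44%, 1.62% and 3.28% after treatment.

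*AGR2* encodes an endoplasmic reticulum protein of the protein disulfide isomerase (PDI) family that assists the folding of mucins in secretory epithelia and can itself be secreted. *AGR2* was at 316 CPM in Ctrl (9489 UMIs), 100.3 CPM at 1-day (3305 UMIs), 6.85 CPM at 3-day (220 UMIs) and 6.22 CPM at 7-day (158 UMIs). It was already well below Ctrl at 1 day, and at 3 and 7 days it was nearly lost. The log2 ratios to Ctrl were -1.66 (-1.71 to -1.60), -5.53 (-5.73 to -5.34) and -5.67 (-5.90 to -5.44), and the 7-day level was 50.8-fold lower than Ctrl. From 1 to 3 days *AGR2* was lower by a further 14.7-fold (log2 ratio -3.87, -4.08 to -3.68). From 3 to 7 days the ratio was -0.14 (-0.44 to 0.16) over all cells, -0.01 (-0.41 to 0.39) without the 1% of cells with most *AGR2* UMIs and -0.96 (-1.48 to -0.45) in thinned cells, where 2 of the 677 3-day cells held 22 and 29 *AGR2* UMIs and no other held more than 3.

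The share of cells with an *AGR2* UMI followed the level. It was 96.7% (interval 95.3% to 97.7%) in Ctrl, 81.1% (78.5% to 83.6%) at 1-day, 15.04% (12.5% to 17.9%) at 3-day and 14.8% (11.9% to 17.9%) at 7-day. In thinned cells it was 93.1%, 68.8%, 7.98% and 5.83%. *AGR2* thus went from nearly every cell to a small minority. At 3-day 83 of the 106 positive cells, and at 7-day 64 of the 84, held a single *AGR2* UMI. No cell type that lacks these genes was present, so the share of cells that would carry such a UMI from free RNA alone was not measured.

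**Figure D3:**
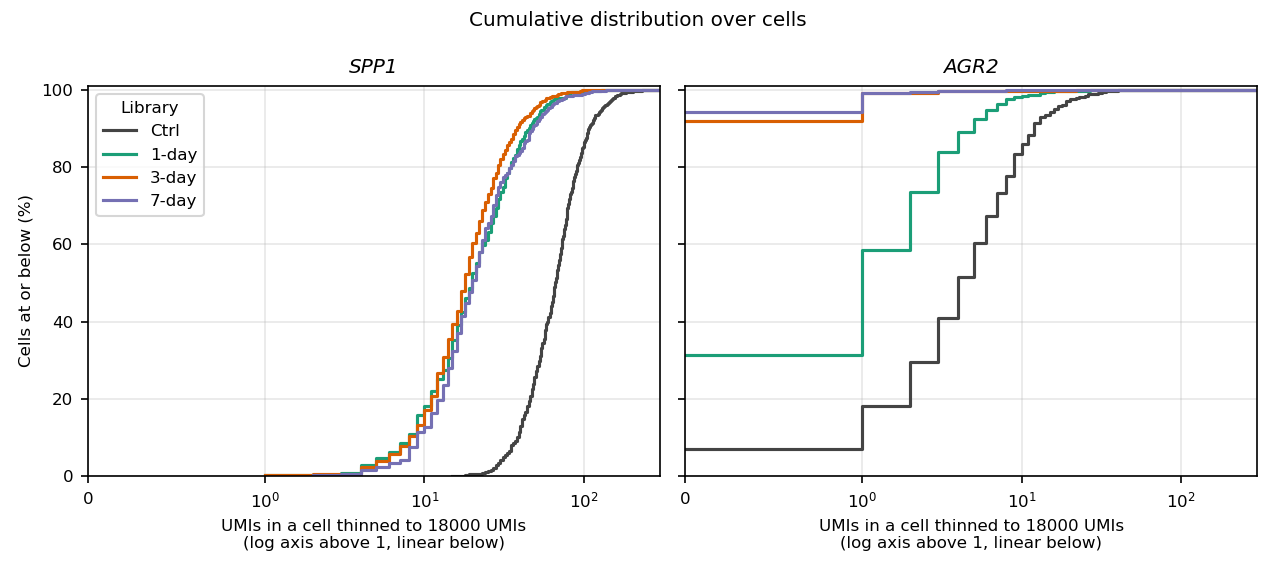
Cumulative share of cells (in %) at or below a number of UMIs of *SPP1* (left) and *AGR2* (right) after thinning to 18000 UMIs per cell, one line per library, on an axis that is linear up to 1 UMI and logarithmic above. The *SPP1* curves of the treated libraries are shifted as a whole, from a median of 66 UMIs to 18 to 20, whereas for *AGR2* the share of cells at 0 goes from 6.87% in Ctrl to 31.2%, 92.0% and 94.2%.

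The few treated cells that still held much *AGR2* were examined after the values had been seen. Cells with at least 5 *AGR2* UMIs, without thinning, made up 638 of 933 in Ctrl, 235 of 937 at 1-day, 7 of 705 at 3-day and 5 of 569 at 7-day. The 7 and 5 late cells held 43.6% and 38.0% of all *AGR2* UMIs of their libraries. Without them the log2 ratio of *AGR2* to Ctrl was -6.33 at 3 days and -6.34 at 7 days. *LCN2* was detected in most of the same cells, with at least 1 *LCN2* UMI in 6 of 7 and 4 of 5. Over all cells of the 3-day and 7-day libraries the share with an *LCN2* UMI was 13.2% and 22.3%. They held 22.3% and 26.4% of all *LCN2* UMIs of their libraries. The 3-day cell with most *LCN2* (34 UMIs) had 0 *AGR2* UMIs and was not among them. Of the 52 *LCN2* UMIs in the 7 3-day cells, 33 came from 1 cell. Pooled over the late cells, the *LCN2* level was 90.8 CPM against 5.73 CPM in the remaining 3-day cells and 372 CPM against 9.62 CPM at 7-day. *SPP1* was also higher in that pool, at 2292 against 1144 CPM and 3541 against 1393 CPM. Single cells differed, as the 3-day cell with most *AGR2* held 9 *SPP1* UMIs of 21503 and 1 7-day cell held 5 of 19093. *PMEPA1* was lower in the pool, at 884 against 1394 CPM and 350.3 against 968 CPM, though not in every cell, as 1 3-day cell held 59 UMIs of 36555. The 3-day pool is weighted to 1 cell of 255430 UMIs. Ctrl and 1-day cells with at least 5 *AGR2* UMIs differed from the rest of their libraries in the same directions. In Ctrl, *LCN2* was at 32.8 against 15.4 CPM, *SPP1* at 4094 against 3763 CPM and *PMEPA1* at 50.4 against 109 CPM. At 1-day these were 33.0 against 9.74 CPM, 1791 against 1186 CPM and 1315 against 1570 CPM. None of the barcodes of these late cells occurred in another library, and what sets the cells apart was not tested.

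**Figure D4:**
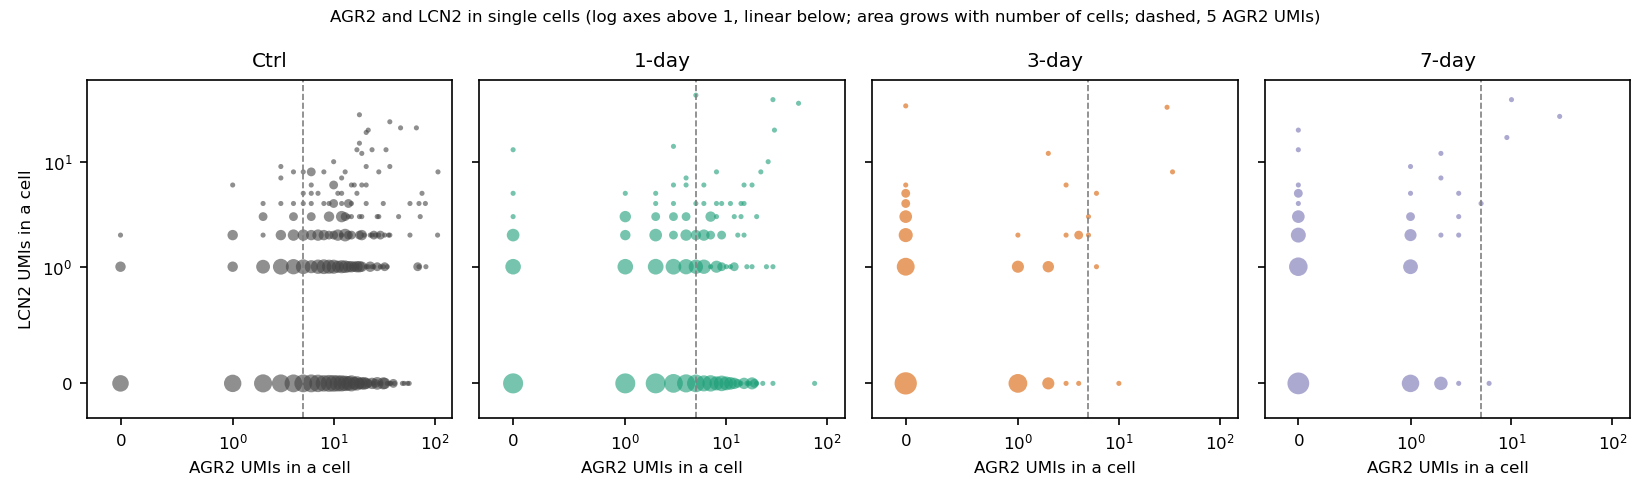
UMIs of *AGR2* (x axis) and *LCN2* (y axis) per cell in the 4 libraries, without thinning; both axes are linear up to 1 and logarithmic above, point area grows with the number of cells at the same values and the dashed line marks 5 *AGR2* UMIs. Right of the line lie 638 Ctrl, 235 1-day, 7 3-day and 5 7-day cells, and most of the late ones hold *LCN2* as well.

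*LCN2*, whose start is preceded by the same ATAAATA letters at nearly the same distance as that of *AGR2*, encodes lipocalin-2, a secreted protein that binds bacterial siderophores and forms a complex with the gelatinase MMP9. *LCN2* was at 27.97 CPM in Ctrl (839 UMIs), 16.05 CPM at 1-day (529 UMIs), 7.25 CPM at 3-day (233 UMIs) and 12.96 CPM at 7-day (329 UMIs). The lowest level was that of the 3-day library, and the 7-day level lay between those of 1 and 3 days. The log2 ratios to Ctrl were -0.80 (-0.96 to -0.64), -1.95 (-2.16 to -1.74) and -1.11 (-1.30 to -0.92), the last with an interval that includes less than a 2-fold difference. From 3 to 7 days the log2 ratio was 0.84 (0.59 to 1.09). It was 1.04 without the 1% of cells with most *LCN2* UMIs and 0.66 in thinned cells. In cells without a *TOP2A* or *MKI67* UMI, 2 genes of proliferating cells, the order of the libraries differed. There the ratios to Ctrl were -1.39, -2.01 and -3.14, lowest at 7 days, though only 60 Ctrl cells were of that kind. A UMI of *LCN2* was found in 34.1%, 22.1%, 13.2% and 22.3% of cells, and in 23.9%, 16.2%, 7.39% and 11.7% of thinned cells. Its counts were concentrated in few cells, as the 10 cells with most *LCN2* held 22.3% of its UMIs in Ctrl and 37.4%, 50.6% and 47.1% in the treated libraries in time order.

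*SLPI* encodes a secreted inhibitor of leukocyte serine proteases built of WAP domains. *SLPI* was at 16.3 CPM in Ctrl (489 UMIs), 13.5 CPM at 1-day (444 UMIs), 11.3 CPM at 3-day (362 UMIs) and 4.92 CPM at 7-day (125 UMIs). It thus differed from *AGR2* and *SPP1* in its course. It was lower at each successive time point, but by less than 2-fold from Ctrl until the 7-day library. The log2 ratios to Ctrl were -0.27 (-0.46 to -0.09), -0.53 (-0.73 to -0.33) and -1.73 (-2.02 to -1.44), and from 3 to 7 days the ratio was -1.19 (-1.50 to -0.90). The share of cells with an *SLPI* UMI was 19.3%, 18.8%, 17.9% and 10.0%, and after thinning 13.6%, 13.9%, 12.3% and 5.83%. In cells without a *TOP2A* or *MKI67* UMI, 2 genes of proliferating cells, the 7-day ratio was -0.84, short of 2-fold, though only 60 Ctrl cells were of that kind. Their share was 6.43% in Ctrl, and in time order 50.5%, 23.1% and 13.4% after treatment.

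**Figure D5:**
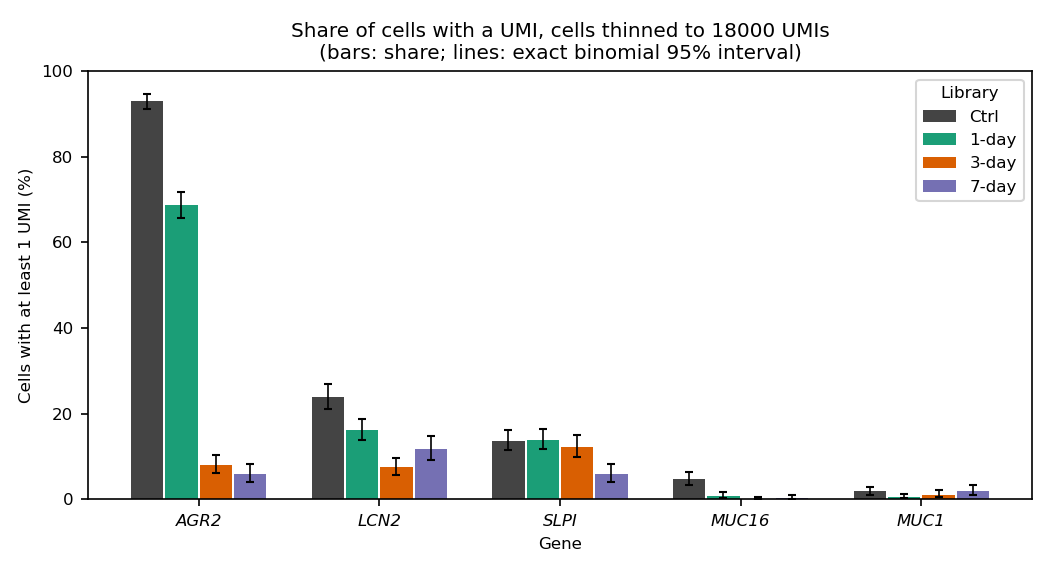
Share of cells (in %) with at least 1 UMI of *AGR2*, *LCN2*, *SLPI*, *MUC16* and *MUC1* in each library after thinning to 18000 UMIs per cell, with exact binomial 95% intervals. *AGR2* goes from 93.1% to 5.83% of cells, *LCN2* is lowest at 3-day (7.39%), *SLPI* differs at 7-day (5.83%), and *MUC16* and *MUC1* are below 5% throughout.

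Of the mucins, *MUC16* encodes a very large transmembrane mucin whose shed part carries CA125. *MUC16* had 89 UMIs in Ctrl (2.97 CPM), 14 at 1-day (0.425 CPM), 4 at 3-day (0.124 CPM) and 5 at 7-day (0.197 CPM). It was rare in untreated cells and close to the floor after treatment. The log2 ratios to Ctrl were -2.80 (-3.73 to -1.98), -4.58 (-6.48 to -3.17) and -3.91 (-5.57 to -2.64). *MUC16* UMIs were found in 58 of 933 Ctrl cells (6.22%, 4.75% to 7.96%), and in 13 of 937, 4 of 705 and 3 of 569 treated cells. One Ctrl cell held 8 of the UMIs, and 42 of the 58 positive Ctrl cells held 1.

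*MUC1*, a transmembrane mucin of the apical surface of most glandular epithelia, had 30 UMIs in Ctrl (1.00 CPM), 13 at 1-day (0.395 CPM), 18 at 3-day (0.560 CPM) and 17 at 7-day (0.670 CPM). It was low throughout, with UMIs in every library. The log2 ratio was -1.34 (-2.40 to -0.36) at 1 day, and at 3 and 7 days it was -0.84 (-1.77 to 0.05) and -0.58 (-1.53 to 0.33), with intervals that include 0. The cells with a *MUC1* UMI numbered 19 (2.04%), 13 (1.39%), 17 (2.41%) and 17 (2.99%), so in share of cells the treated libraries were not uniformly below Ctrl. Without the 1% of cells with most *MUC1* the 7-day ratio was 0.53, and 1 Ctrl cell held 6 of the 30 UMIs. In cells without a *TOP2A* or *MKI67* UMI (genes of proliferating cells), of which Ctrl had 60, the ratios were -3.66, -4.33 and -2.64. With at most 30 *MUC1* UMIs in a whole library, these 3 values rest on few UMIs, and no interval is given for them.

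*PAX8*, the transcription factor of Müllerian and renal epithelium used to assign carcinomas to that lineage, had 10, 8, 4 and 8 UMIs in Ctrl, 1-day, 3-day and 7-day (0.333, 0.243, 0.124 and 0.315 CPM). It was thus barely detected before treatment. The log2 ratios were -0.46, -1.42 (-3.55 to 0.37) and -0.08 (-1.62 to 1.41), and all 3 intervals include 0.

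*MSLN* had 7, 4, 6 and 8 UMIs in the same order, or 0.233, 0.121, 0.187 and 0.315 CPM. Its log2 ratios were -0.94 (-3.16 to 1.03), -0.32 (-2.17 to 1.48) and 0.43 (-1.22 to 2.13), so a difference of 2-fold in either direction was not detectable at this depth. *WFDC2*, which encodes a small secreted WAP protein, had 3, 2, 1 and 2 UMIs. *FOLR1*, the folate receptor α of the cell surface, had 3, 1, 2 and 0 UMIs, and the count of 0 at 7-day has an exact Poisson upper limit of 0.145 CPM. Neither of these genes can be said to be kept or lost, since both were at the floor before treatment.

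As a sum, the 10 genes made up 4367 CPM in Ctrl and 1482, 1191 and 1439 CPM at 1, 3 and 7 days. *SPP1* provided 91.6%, 91.2%, 97.8% and 98.2% of that sum, and without it the other 9 genes summed to 365, 131, 26.4 and 25.7 CPM. The 4 secreted products thus followed different courses. Over all cells, *SPP1* was at its treated level by day 1 and held there, and *AGR2* went on to near loss by day 3. *LCN2* was lowest at day 3, and *SLPI* passed a 2-fold difference only at day 7. In cells without a *TOP2A* or *MKI67* UMI, *LCN2* was lowest at day 7 (-3.14) and *SLPI* was within 2-fold (-0.84). Between successive treated libraries, 3 of the 10 genes were at least 2-fold lower at 3 than at 1 day (*MUC16*, *AGR2* and *LCN2*, against 4.44% of all genes tested) and none was higher (against 5.69%), and 1 was lower at 7 than at 3 days (*SLPI*, against 1.68%). *PAX8* was the only one at least 2-fold higher in such a step (against 2.49%), from 4 to 8 UMIs between 3 and 7 days, with an interval that includes 0. *MUC16* and *PAX8* are below the filter that these shares are taken over, so the shares are a loose measure for them.

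The genes were also compared with each other across the thinned cells of each library. These correlations are over 844 Ctrl, 900 1-day, 677 3-day and 549 7-day cells that share a library and a depth, and they are given as a description. *SLPI* and *LCN2* had a Pearson r of 0.33, 0.34, 0.33 and 0.04 in Ctrl, 1-day, 3-day and 7-day. In Ctrl, *LCN2* was detected in 53.0% of the cells with an *SLPI* UMI and in 19.3% of those without. *AGR2* and *LCN2* had an r of 0.19, 0.20, 0.44 and 0.46. Without thinning the late values were 0.49 and 0.54, and with the cells of at least 5 *AGR2* UMIs left out they were both 0.15. The same removal, which narrows the range of *AGR2*, took r from 0.21 to 0.06 in Ctrl and from 0.23 to 0.12 at 1-day. For *SPP1* the r to *AGR2* was 0.04, 0.33, 0.12 and 0.10, that to *LCN2* -0.16, 0.13, 0.08 and 0.18 and that to *SLPI* -0.26, 0.08, 0.17 and 0.03, so its closest relation was to *AGR2* at 1-day.

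*SPP1* was the only one of the 10 genes with a UMI in at least 20% of thinned cells of every library, the level set for naming the genes of most similar pattern. By mean within-library r over 2970 thinned cells and 2706 genes, these were *AKR1C3* (0.34), *AKR1B10* (0.30) and *AKR1C1* (0.28), which encode aldo-keto reductases. The r of *AKR1B10* was only 0.09 in Ctrl, against 0.29, 0.36 and 0.45 at 1, 3 and 7 days. That of *AKR1C3* was 0.23 to 0.44 and that of *AKR1C1* 0.23 to 0.38 over the libraries. *AKR1C3* and *AKR1C1* have close relatives between which reads may be split, so the assignment is uncertain. All 3 were also lower after treatment, *AKR1B10* from 2842 CPM in Ctrl to 699, 353 and 261 CPM. For *AGR2*, looked at in Ctrl and 1-day alone after its near loss had been seen, the closest of 2706 genes were *TFF1* (mean r 0.35 over 1744 cells), *NQO1* (0.31) and *KRT19* (0.30). *TFF1*, which encodes a small peptide secreted with mucus, was at 138, 93.2, 11.7 and 3.43 CPM in the 4 libraries. *KRT19*, a keratin of simple epithelia, was at 1178, 989.5, 519 and 581 CPM.

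Lists of genes that work with the 10 genes were described in the same way, at a 2-fold difference from Ctrl and over members that passed 1 CPM on average. Of all genes tested, 10.6%, 8.54% and 7.85% were lower at 1, 3 and 7 days. The shares higher were 10.2%, 10.9% and 12.9%, and these are the shares to set beside each list. Of 27 other markers of serous carcinoma, 15 passed. At 1, 3 and 7 days 1, 3 and 4 of them were lower and 2, 3 and 2 were higher, with a median log2 ratio of 0.56, 0.32 and 0.18. *MECOM*, a transcription factor gene often amplified in these tumors, was at 14.7 CPM in Ctrl and 42.9, 51.2 and 44.7 CPM after treatment. *BCAM*, a laminin receptor, was at 46.1, 24.9, 14.2 and 11.98 CPM. The shares to set beside these counts of 15 are those of all genes given above, and no test of the list was made. *SCGB2A1*, lower at each time point, was at 3.00, 1.18, 0.996 and 0 CPM. It passed the filter mainly through Ctrl, so its calls are not independent of the filter. *WT1*, *EMX2* and *SLC34A2* had no UMI in any library. Of 8 other *PAX* genes, only *PAX5* had a UMI, with 2 at 1-day and 1 at 7-day.

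For the mucins, 5 of 15 further genes passed (14 had a row in the matrices), and 3, 2 and 2 of them were lower and 1 was higher at each time point (median -1.28, -0.84 and -0.93). These counts are not independent of the filter. *MUC5B* passed it through Ctrl alone, and *MUC12* through the 3-day and 7-day libraries. *OVGP1*, lower at 1 and 3 days, passed mainly through Ctrl, at 2.10, 0.850, 0.871 and 1.10 CPM. *MUC5B*, a gel-forming secreted mucin, had 194 UMIs in Ctrl, 8 at 1-day and 0 at 3-day and 7-day, and at 1 day its log2 ratio was -4.74 (-5.97 to -3.73), further from Ctrl than *AGR2* at that time. Of 19 genes of mucin-type O-glycosylation 17 passed, with 3 lower and 3 higher at each time point. Among the higher genes, *GCNT1*, at 0.700 CPM in Ctrl and 2.64, 1.65 and 1.81 CPM after treatment, passed through the treated libraries. Its calls are not independent of the filter. *ST6GALNAC1*, the sialyltransferase that makes the sialyl-Tn antigen, was at 19.8, 3.16, 1.46 and 4.18 CPM. *GALNT14*, an enzyme that starts O-glycan chains, was at 7.53, 24.1, 32.1 and 26.5 CPM. Of the 3 proteases that process or shed mucins and mesothelin, *FURIN* was higher throughout (10.3, 88.1, 55.5 and 33.1 CPM), while *ADAM10* and *ADAM17* stayed within 2-fold of Ctrl.

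Among the relatives of *AGR2*, 11 of 12 other genes of the PDI family passed, and none was lower at any time. At 1 day 2 were higher, by 1.07 for *PDIA3* and 1.01 for *ERP44* on the log2 scale, and none was at 3 or 7 days. No other family member that passed was lower, unlike *AGR2*. *AGR3*, its closest relative, had 4, 1, 0 and 0 UMIs. For *SPP1*, 7 of 10 genes of osteopontin receptors passed. At 1, 3 and 7 days 5, 6 and 6 of them were higher, against 10.2%, 10.9% and 12.9% of all genes tested. None was lower, and the median log2 ratio was 1.66, 2.38 and 2.46. *ITGB3*, with 0 UMIs in Ctrl and 0.364, 1.74 and 1.97 CPM after treatment, passed the filter through the 3-day and 7-day libraries alone. Its call and its part in the medians are therefore not independent of the filter. *ITGAV* was at 45.1, 174, 234 and 248 CPM, *ITGB6* at 28.97, 161, 190 and 227 CPM and *ITGA5* at 1.33, 4.22, 12.8 and 34.7 CPM. The exceptions were *ITGB5*, within 2-fold of Ctrl throughout, and *CD44*, which was at 47.7 CPM in Ctrl, 41.9 CPM at 1 day and 137 and 218 CPM at 3 and 7 days. The other 4 genes of the SIBLING family, to which *SPP1* belongs, had at most 1 UMI in a library.

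*MMP9*, the partner of lipocalin-2, was at 2.10, 4.19, 19.1 and 81.2 CPM, so that at 7 days its log2 ratio was 5.27 (4.91 to 5.66). The 2 genes of lipocalin-2 receptors had at most 10 UMIs in a library. Of 17 other secreted defence proteins of epithelia, 2 passed, and both were higher at 3 and 7 days. *SERPINA1*, the protease inhibitor α1-antitrypsin, was at 3.27, 76.2, 322 and 399 CPM, and *SAA1*, an acute-phase protein, at 1.17, 0.273, 3.17 and 14.2 CPM. *SAA1* passed the filter through the 3-day and 7-day libraries, so its calls there are not independent of the filter. Among the 15 that did not pass, *LYZ* had 15, 9, 3 and 1 UMIs and *TCN1* 31, 9, 0 and 8 UMIs, so the list held genes of either direction. None of the 14 other WAP-domain genes passed, and 12 of them had at most 3 UMIs in every library. Of 17 genes of folate uptake and use 15 passed. Lower were 7, 2 and 2 of them, against 10.6%, 8.54% and 7.85% of all genes tested. Higher were 0, 1 and 2, against 10.2%, 10.9% and 12.9%, and of these *FOLR3* passed the filter through the 3-day and 7-day libraries alone. *FOLR3*, a secreted folate receptor, was at 0.667, 0.698, 7.81 and 22.5 CPM, a log2 ratio of 5.08 (4.44 to 5.80) at 7 days, whereas *FOLR1* stayed at the floor. *SLC46A1*, the proton-coupled folate transporter, was at 14.1, 9.83, 27.8 and 35.9 CPM.

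Of the markers of other cell types, *PTPRC*, *COL3A1* and *CLDN5* were at or near 0, whereas *CDH5* and the mesothelial gene *CALB2* were detected and were lower after treatment. Of the leukocyte genes, *PTPRC* had 2 UMIs in Ctrl and 0 in the treated libraries, and the list summed to 1.77 to 6.22 CPM, nearly all from *CD68*. Fibroblast genes summed to 0.276 to 1.37 CPM, with *COL3A1* at 0. Endothelial genes summed to 5.40 CPM in Ctrl and 0.311 to 0.473 CPM after treatment, 1 gene, *CDH5*, making up most of it while *CLDN5* was at 0. Mesothelial genes summed to 68.1, 28.9, 14.8 and 12.5 CPM, of which *CALB2* made up 66.7, 27.4, 13.6 and 10.7 CPM. Of the 7 epithelial genes, 1, 2 and 2 were lower and 2, 1 and 1 higher. *ELF3*, an epithelial ETS factor, was at 269, 47.98, 28.7 and 52.7 CPM, lowest at 3-day like *LCN2*, and *KRT7* was at 346, 942, 1080 and 881 CPM.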

How the data were processed

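The authors sequenced 10x Genomics 3′ libraries of OVCA420 cells and deposited, without normalization, counts of UMIs per gene and cell for each library; the submitters' processing notes name Cell Ranger 2.0.1 and GRCh38. Of 10710 listed barcodes, the 3170 with complete values in the matrices used here (the first of each library in barcode order) were analysed, and the last, incomplete cell of each was dropped. Cells with at least 200 genes and at most 20% mitochondrial UMIs were kept (3144). Scrublet in scanpy 1.11.5 marked 40 doublets (1.27%), which were kept except in an alternative. UMIs were summed per library as CPM, and cells were thinned to 18000 UMIs for shares and correlations, which used log-normalized values (scale 10000). A difference was called at 2-fold. With 1 library per time point no test was made. Intervals came from scipy 1.17.1 (Python 3.11.15, numpy 2.4.6, pandas 2.3.3). SCTransform and regression, which the study describes, were not applied. The 10 genes and the gene lists were chosen with earlier results of these data known. All 10 genes were named. Of each list, counts were given and up to 3 genes with a mean of at least 5 CPM were named by the size of their 7-day ratio to Ctrl. Some genes that this rule selects are not reported here. List genes named beyond that (*MUC5B*, *MUC12*, *OVGP1*, *SCGB2A1*, *GCNT1*, *SOX17*, *EPCAM*, *ERP44*, *CD44*, *ITGB5*, *ITGB3*, *SAA1*, *CDH5*, *CD68* and genes at or near 0), and the genes compared with *AGR2*, were chosen after their values were seen. Steps were tested on simulated counts. The 8 alternatives were 2 other mitochondrial limits, doublets left out, median-of-ratios scaling, means over cells, thinning, cells without a *TOP2A* or *MKI67* UMI, and the 1% of cells highest in a gene left out; the comparisons between treated libraries and the removal of cells with at least 5 *AGR2* UMIs were added after seeing the data.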

Additional observations from a re-analysis of the deposited data

How the results depend on the processing

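The numbers of genes at least 2-fold lower or higher than Ctrl stayed within 1.5 times of the reported numbers under all 8 alternatives at the 3 time points. The genes called were not the same in all of them. At 1 day the number lower went from 4 to 5 without the 1% of cells highest in a gene. There *LCN2* passed 2-fold (-1.12), as it did in cells without a *TOP2A* or *MKI67* UMI (-1.39). The number was also 5 with a mitochondrial limit of 10% and in thinned cells, through *MSLN* (-1.01) and *PAX8* (-1.32). At 7 days it went from 5 to 6 in thinned cells, where *PAX8* (-1.19) passed 2-fold. At 3 days the number lower went from 5 to 7 in thinned cells, where *MSLN* (-1.68) and *MUC1* (-1.14) passed 2-fold. It was 4 without the 1% of cells highest in a gene. Of 180 alternative log2 ratios, 142 stayed within the counting interval of the reported value, 38 moved outside it, and 177 kept their sign. The 3 that changed sign were those of *MSLN* at 3 days without a mitochondrial limit (0.41), *MUC1* at 7 days without the 1% of cells with most *MUC1* UMIs (0.53) and *PAX8* at 7 days as a mean over cells (0.03), none of which had passed 2-fold. In cells without a *TOP2A* or *MKI67* UMI, of which Ctrl had 60, the 7-day ratio was -0.84 for *SLPI*. That ends its 2-fold difference. In the same cells the ratios of *LCN2* were -1.39, -2.01 and -3.14 at 1, 3 and 7 days. Its lowest level there was that of 7 days and not that of 3 days. The 1-day ratio of *MUC16* in these cells, from few UMIs, was -4.33. The cause was not tested. The ratio of *AGR2* at 3 days was -6.28 without its highest 1% of cells and -5.16 in thinned cells. With only genes of at least 10 CPM tested, 4.08% of genes were lower at 7 days, and without a filter 9.82%, against 7.85% as reported. *WFDC2*, *FOLR1*, *MSLN* and *PAX8*, at 10 UMIs or fewer, are limited by depth. No paired analysis was possible because each time point has 1 library.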
